A study of Mus musculus with 24 samples.

Results

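The BCL2 family of apoptosis regulators was followed in organoids through 9 genes, Bcl2, Bcl2l1, Mcl1, Bcl2l11, Bmf, Bad, Bid, Bik and Bak1. They were chosen by name as family genes outside the classic p53 targets, and each symbol was matched to 1 of the 45706 Ensembl gene IDs of both count tables. Organoids are epithelial cultures grown in a gel from intestinal crypts, here from the small intestine (SI) and the colon (COL) of C57BL/6N mice. The cultures carried BraffloxV600E/+;Villin::CreERT2 (BRAF), Trp53LSL-R172H/+;Villin::CreERT2 (p53), or all 3 alleles (BRAFp53), so that every group, the controls included, carried the Cre recombinase that the epithelial Villin promoter drives. Organoids switched on received 4-hydroxytamoxifen for 24 h, at 0.5 µM in SI and 3.5 µM in COL, and their off controls received ethanol for the same time. RNA was taken on day 8 in SI and day 3 in COL, and the COL medium contained Wnt3a and CHIR99021 in addition, so tissue, dose, day and medium cannot be told apart. Each genotype was 1 donor culture per tissue with 2 libraries on and 2 off, which gave 12 groups and 24 libraries, and the spread within a group is therefore that of handling 1 culture and not of different mice.

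Mitochondrial apoptosis is decided by contacts between BCL2 family proteins. The pro-survival proteins BCL2, BCL-XL (from Bcl2l1) and MCL1 hold back the pore formers BAK (from Bak1) and BAX, and the BH3-only proteins BIM (from Bcl2l11), BMF, BAD, BID and BIK release or activate these pore formers. ERK kinase activity, which oncogenic BRAF raises, is known to mark BIM protein for degradation and to favour phosphorylation of BAD, and neither of these protein events is visible in RNA levels.

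The sequences upstream of 4 genes are shown because these were the members whose response differed between tissues or between genotypes by the test of the difference itself. Each is the 250 bases before the 5′-most start that RefSeq lists for the gene in GRCm38.p6, written 5′ to 3′ on the strand of the gene, ending at the base before that start. Capitals mark matches, on either strand, to the letters CCGGAAG (an ETS factor motif), TGANTCA (AP-1), GTAAACA (FOXO) or TGACGTCA (CRE). Mcl1 lies at chr3:95658471-95658720 on the plus strand, Bcl2l11 at chr2:128125788-128126037 on the plus strand, Bcl2l1 at chr2:152831729-152831978 on the minus strand and Bad at chr19:6941611-6941860 on the plus strand.
Mcl1: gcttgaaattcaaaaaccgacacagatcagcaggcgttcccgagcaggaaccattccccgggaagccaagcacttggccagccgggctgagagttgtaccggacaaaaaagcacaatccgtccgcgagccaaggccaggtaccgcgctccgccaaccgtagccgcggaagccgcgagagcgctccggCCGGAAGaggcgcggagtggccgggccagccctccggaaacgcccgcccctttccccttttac
Bcl2l11: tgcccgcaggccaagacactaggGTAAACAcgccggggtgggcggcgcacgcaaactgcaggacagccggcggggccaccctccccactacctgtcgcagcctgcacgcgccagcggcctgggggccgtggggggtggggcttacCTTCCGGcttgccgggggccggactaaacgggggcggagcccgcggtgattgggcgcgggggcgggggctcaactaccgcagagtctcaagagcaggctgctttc
Bcl2l1: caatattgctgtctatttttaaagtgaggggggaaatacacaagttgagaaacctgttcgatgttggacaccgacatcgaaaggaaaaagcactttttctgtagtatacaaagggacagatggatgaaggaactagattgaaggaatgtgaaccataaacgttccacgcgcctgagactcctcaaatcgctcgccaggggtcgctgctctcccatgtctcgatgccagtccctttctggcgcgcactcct
Bad: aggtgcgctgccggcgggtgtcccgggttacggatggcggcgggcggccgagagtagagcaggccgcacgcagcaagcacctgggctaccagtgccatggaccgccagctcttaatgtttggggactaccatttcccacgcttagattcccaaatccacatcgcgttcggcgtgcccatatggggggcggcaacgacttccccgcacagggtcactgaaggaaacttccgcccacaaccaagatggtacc
The Mcl1 window held 1 ETS match whose first base lay at position -63 from the start. The Bcl2l11 window held a FOXO match at -227 and an ETS match, read on the opposite strand, at -105. The Bcl2l1 and Bad windows held none of the 4 motifs, and neither did any listed window of Bcl2, Bmf, Bid or Bak1. In all 32851 RefSeq windows of this length, 6.91% held the ETS letters, 6.75% the AP-1 letters, 3.17% the FOXO letters and 1.55% the CRE letters. These matches describe letters and not binding, and 8 of the 9 members had at least 1 window in the table, Bik being the one without.

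Library totals were 51174821 to 78175143 counts in COL and 44350747 to 68214835 in SI, and all 9 genes passed the filter on low counts in both tissues. The targeted gene Trp53 stood at 449 and 447 CPM (counts per 1000000 after TMM scaling within the tissue) in COL p53 on against 222 and 244 off, and at 241 and 251 in SI p53 on against 145 and 145 off. Its log2 fold change was 0.94 ± 0.13 in COL p53 (SE, adjusted p = 0.0227) and 0.76 ± 0.13 in SI p53, which did not pass (adjusted p = 0.194). Trp53 also rose in COL BRAFp53 (0.94) and SI BRAFp53 (0.52), and fell in COL BRAF (by 0.44) and SI BRAF (by 0.62). The Braf substitution does not show in a count. Braf itself stood at 42.1 and 39.4 CPM in COL BRAF on against 29.4 and 30.8 off, and at 18.0 and 16.1 in SI BRAF on against 10.7 and 13.3 off, which did not pass the test in either tissue. The epithelial markers Epcam, Cdh1, Vil1, Krt8, Krt18 and Krt19 together reached at least 7970 CPM in every library, whereas the 6 stromal markers together stayed at or below 3.33 CPM and the 3 endothelial markers at or below 1.41 CPM. Among the immune markers the lineage genes Cd3e, Cd79a and Adgre1 stayed at or below 0.162 CPM and the median of Ptprc was 0.523 CPM in COL and 0.01 CPM in SI, while Cd14 ran from 32.9 to 127 CPM in COL and from 5.93 to 19.7 in SI, and Itgam from 0.679 to 4.4 in COL and from 1.88 to 20.8 in SI. Both rose in SI BRAF (Cd14 by 1.18 and Itgam by 1.57 on the log2 scale) and in SI BRAFp53 (1.12 and 0.99), and Cd14 rose in COL BRAF (0.50) and COL BRAFp53 (0.91). Cd14 was the only immune marker called in those 2 COL comparisons. The median over the 3 immune markers tested was negative there, at -0.58 in COL BRAF and -1.35 in COL BRAFp53. Their part in the results on the 9 genes was not tested. One library stood apart, in that SI BRAF on replicate 1 held 15.4 CPM of the female transcript Xist while the other 3 SI BRAF libraries held 0.206 to 0.437, and what leaving it out does to the members and lists is given beside the results. Xist was at 104 to 150 CPM in the SI p53 and SI BRAFp53 libraries and at or below 0.044 CPM in all COL libraries, so the sex of the culture cannot be told apart from tissue in those genotypes. The study names 3 donor mice for the genotypes, which these Xist values do not match. Whether SI and COL cultures of a genotype shared a mouse is therefore unclear, and cultures were treated as independent.

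In off organoids the members fell into an abundant and a scarce set, and the order of the abundant ones differed between tissues. To compare genes, levels were divided by the length of all annotated exons of the gene, merged over its transcripts (CPM per kb), and averaged over the 3 cultures of a tissue. The order of genes depends on this length, and which transcripts were present was not tested. Bad also shares exonic bases with Gpr137, as given below. In COL, Bcl2l1 stood highest at 25.7 ± 9.09 CPM per kb (SD, n = 3 cultures), followed by Mcl1 at 18.0 ± 3.72 and Bad at 15.4 ± 4.13, and the cultures of these neighbours overlapped. Bid at 9.71 ± 1.75 and Bak1 at 9.49 ± 1.15 came next and overlapped with each other, and all cultures of Bad lay above all cultures of Bid. Bik, Bcl2, Bcl2l11 and Bmf lay between 1.08 and 2.25 CPM per kb on average, below every Bak1 value, and each overlapped with the next. In SI, Bad stood highest at 32.1 ± 5.63 CPM per kb, above every culture's value of Bcl2l1 at 17.9 ± 2.12. Bcl2l1 overlapped with Mcl1. Mcl1 at 15.2 ± 1.55 and Bak1 at 15 ± 2.2 did not differ beyond their spread, and Bid followed at 7.60 ± 0.812. The scarce genes in SI were Bcl2l11 at 0.962 ± 0.033, Bcl2 at 0.556 ± 0.0631, Bmf at 0.529 ± 0.0279 and Bik at 0.251 ± 0.182 CPM per kb, of which Bcl2 and Bmf overlapped.

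**Figure D1:**
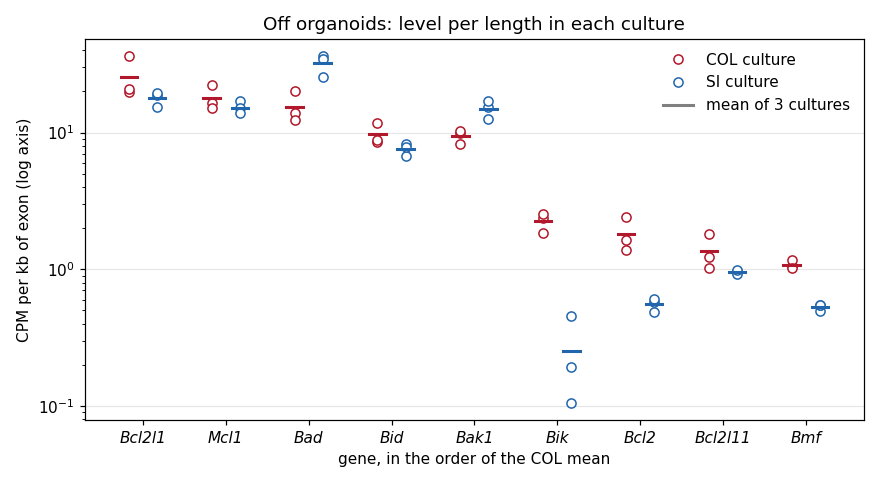
Level per length of the 9 genes in off organoids, in CPM per kb of exon on a log axis, with 1 point per culture (mean of its 2 off libraries) and a line at the mean of the 3 cultures, COL in red and SI in blue. Bcl2l1, Mcl1, Bad, Bid and Bak1 lay above 6 CPM per kb in every culture, and Bik separated the tissues most widely, at 2.25 CPM per kb on average in COL and 0.251 in SI.

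Tested over the 3 cultures of each tissue (edgeR quasi-likelihood test, Benjamini-Hochberg over 17789 genes), 5 of the 9 genes differed between off COL and off SI organoids, where 29.6% of all genes did. Bik, a BH3-only gene, was 2.93 ± 0.57 higher in COL on the log2 scale (SE, adjusted p = 0.0104), Bcl2 was 1.45 ± 0.25 higher (adjusted p = 0.00723) and Bmf 0.81 ± 0.22 higher (adjusted p = 0.0303). Bad showed a log2 difference of -1.31 ± 0.23 (adjusted p = 0.00766) and Bak1 of -0.90 ± 0.17 (adjusted p = 0.00866), both lower in COL. Mcl1 showed -0.02 ± 0.17, Bid 0.11 ± 0.17, Bcl2l11 0.26 ± 0.24 and Bcl2l1 0.28 ± 0.25, and none of these passed. The call of Bmf was lost whichever culture was left out, with adjusted p from 0.0502 to 0.101, and the other 4 calls held each time. The log2 difference of Bik was 3.72 ± 0.46 without the SI p53 culture and 2.56 ± 0.53 without the SI BRAFp53 culture. Markers of cell types differed in the same comparison. Of 6 goblet cell markers 5 were higher in COL (median log2 difference 1.84), of 6 stem cell markers 4 were higher and 1 lower (1.27), and of 9 enterocyte and colonocyte markers 1 was higher and 5 lower (-3.15). That last list mixes genes found mostly in SI with genes found mostly in COL. Over all libraries of a tissue, median Fabp1 was 9840 CPM in SI and 0.395 in COL, and median Car1 was 0.0 in SI and 5650 in COL. The median of the list thus depends on how many genes of each kind it holds and does not measure cell numbers. Of 6 Paneth cell markers 3 were higher (2.1), of 5 enteroendocrine markers 3 (1.87) and of 4 tuft cell markers 2 (1.44), beside a median of 0.08 over all genes. The study stained Paneth cells in SI organoids, and which cells held the Paneth cell markers in COL was not tested. The part of all these markers in the differences of the 5 genes was not tested either.

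Among the pro-survival genes, Bcl2l1 responded to BRAFV600E in both tissues. Bcl2l1 (ENSMUSG00000007659, chr2:152780668-152831728, minus strand) encodes BCL-XL. It stood at 182 and 150 CPM in COL BRAF on against 97.3 and 85.3 off, and at 224 and 181 in COL BRAFp53 on against 103 and 88.9 off. In SI it stood at 135 and 144 CPM in BRAF on against 78.5 and 63.2 off, and at 98 and 101 in BRAFp53 on against 98.8 and 79.4 off. On and off libraries did not overlap in the first 3 of these pairs of groups and overlapped in SI BRAFp53. The log2 fold changes were 0.87 ± 0.20 in COL BRAF (SE, adjusted p = 0.00854), 1.08 ± 0.20 in COL BRAFp53 (adjusted p = 0.00306) and 0.98 ± 0.14 in SI BRAF (adjusted p = 0.000134), and that in SI BRAFp53 was 0.16 ± 0.13 (adjusted p = 0.547). Without the SI library that held Xist, the SI BRAF value was 1.04 ± 0.16. In COL BRAF the call was lost without on replicate 1 or off replicate 2, where the adjusted p reached up to 0.0788. The COL p53 culture held the most Bcl2l1 off, at 159 and 173 CPM, and its on libraries at 263 and 166 spread more widely than in any other group.

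Mcl1 rose in COL BRAF and passed in none of the other 5 comparisons of on with off. Mcl1 (ENSMUSG00000038612, chr3:95658788-95663176, plus strand) encodes a pro-survival protein with a short half-life. It stood at 106 and 100 CPM in COL BRAF on against 51.7 and 60.8 off, a ratio of the means of 1.83, and apart from the on pair the libraries of both tissues lay between 40.0 and 85.2 CPM. Its log2 fold change was 0.87 ± 0.12 in COL BRAF (SE, adjusted p = 0.000496) against 0.10 ± 0.12 in COL BRAFp53 (adjusted p = 0.625), where the off libraries already stood at 72.2 and 79.5 CPM and the on libraries at 85.2 and 77.2. In SI the on libraries of BRAF at 67.0 and 66.8 CPM lay above the off libraries at 58.7 and 56.7 without passing the test (log2 fold change 0.21 ± 0.13, adjusted p = 0.254). No leave-out of a library ended the COL BRAF call.

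Bcl2 moved in a single comparison, and there it fell. Bcl2 (ENSMUSG00000057329, chr1:106538178-106714274, minus strand), the founding pro-survival gene, stood at 12 and 12.2 CPM in COL BRAFp53 on against 21.6 and 22.9 off. The off libraries of this culture were the highest of the 24, the other COL libraries lying between 11.7 and 15.8 CPM and the SI libraries between 3.10 and 6.58. The log2 fold change in COL BRAFp53 was -0.88 ± 0.14 (SE, adjusted p = 0.00177), and it was -0.07 ± 0.14 in COL BRAF (adjusted p = 0.801), where the on libraries stood at 14.5 and 14 CPM against 15.8 and 14.1 off. The 6 stem cell markers (Lgr5, Olfm4, Ascl2, Smoc2, Axin2 and Sox9) summed to 701 to 819 CPM in COL BRAFp53 off, their highest range in any group, and to 252 to 323 on, but also to 424 to 496 in COL BRAF off and 175 to 229 on. The 4 tuft cell markers summed to 30.0 to 37.8 CPM in COL BRAFp53 off and 18.0 to 20.6 on, with 2 called lower, and to 36.7 to 44.2 in COL BRAF off and 35.1 to 50.5 on, with 0 called by edgeR and 1 at an unadjusted p under 0.05. In a bulk library fewer cells of a type and less RNA per cell cannot be told apart, and the part of these markers in the Bcl2 change was not tested.

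**Figure D2:**
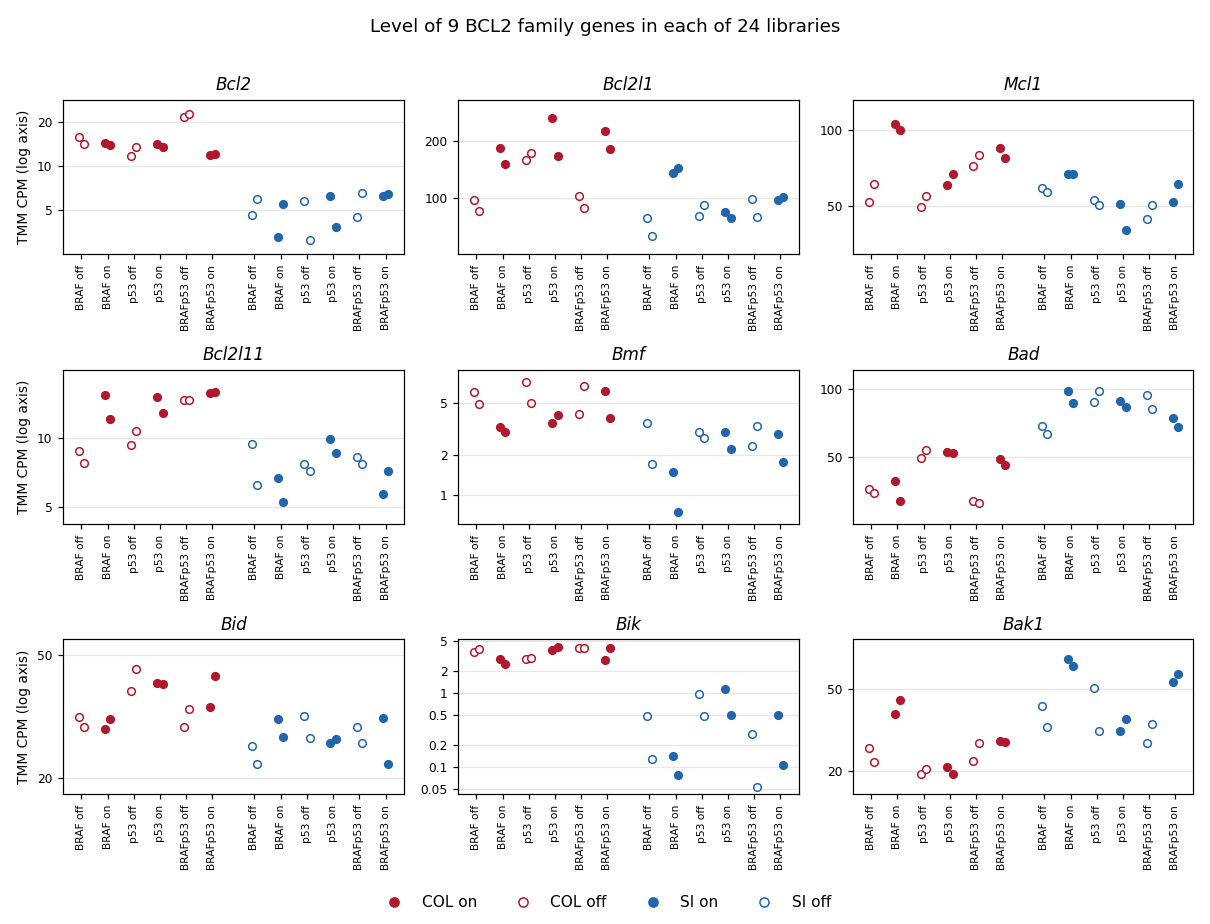
Level of each of the 9 genes in TMM CPM on a log axis, 1 point per library, COL in red and SI in blue, with open points off and filled points on, and scaling within each tissue. Bcl2l1 and Bak1 rose in BRAF on of both tissues, Mcl1 rose in COL BRAF on to 106 and 100 CPM, and Bik lay at 2.49 to 4.25 CPM in COL and 0.0534 to 1.15 in SI.

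Of the BH3-only genes, Bcl2l11 rose in COL BRAF and passed no other comparison of on with off. Bcl2l11 (ENSMUSG00000027381, chr2:128126038-128162547, plus strand) encodes BIM, which binds all the pro-survival proteins. It stood at 15.2 and 12 CPM in COL BRAF on against 8.78 and 7.74 off (log2 fold change 0.72 ± 0.17 SE, adjusted p = 0.012), and at 6.69 and 5.29 in SI BRAF on against 9.34 and 6.24 off (-0.37 ± 0.22, adjusted p = 0.225). The COL groups did not overlap, and the SI groups did. In COL BRAFp53 the on libraries stood at 15.5 and 15.7 CPM and the off libraries at 14.5 and 14.5, so that its off level lay near that of COL BRAF on. The COL BRAF call was lost without on replicate 1 or off replicate 2, with adjusted p up to 0.146.

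Bad rose in BRAF in SI and in BRAFp53 in COL. Bad (ENSMUSG00000024959, chr19:6941861-6951899, plus strand) encodes a BH3-only protein that survival kinases switch off by phosphorylation. It stood at 97.9 and 86.4 CPM in SI BRAF on against 68.5 and 62.9 off (log2 fold change 0.49 ± 0.12 SE, adjusted p = 0.00704), and at 48.9 and 46.1 in COL BRAFp53 on against 31.7 and 31.2 off (0.59 ± 0.12, adjusted p = 0.00601). In COL BRAF the 4 libraries overlapped at 31.8 to 38.8 CPM (0.00 ± 0.12). In SI BRAFp53 the on libraries at 74.3 and 68.1 CPM lay below the off libraries at 94.2 and 81.5 without passing (-0.30 ± 0.12, adjusted p = 0.129). The SI BRAF value was 0.42 without the Xist-bearing library and was no longer called without SI BRAF off replicate 2 (adjusted p = 0.0735). Gpr137, on the opposite strand, covers 20.48% of the exonic bases of Bad and also rose in SI BRAF, to 15.7 and 20.1 CPM from 11.6 and 11.4, and since the strand setting of the counting is not given, its part in the Bad counts was not tested.

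Bmf (ENSMUSG00000040093, chr2:118528757-118549687, minus strand), a BH3-only gene whose protein is held at the cytoskeleton, fell in SI BRAF from 3.50 and 1.72 CPM off to 1.5 and 0.748 on (log2 fold change -1.19 ± 0.43 SE, adjusted p = 0.0492). These are few reads, 75 and 29 counts on and 166 and 106 off, and the call was lost with RLE size factors, limma-voom and the fit of the 4 libraries alone, with adjusted p up to 0.12 over the alternatives, and without SI BRAF on replicate 2 or off replicate 1. The log2 fold change was -0.80 ± 0.47 without on replicate 2 and -0.60 ± 0.46 without off replicate 1, against -1.77 ± 0.53 without on replicate 1, the Xist-bearing library, and -1.62 ± 0.44 without off replicate 2. In COL BRAF the on libraries at 3.28 and 3.04 CPM lay below the off libraries at 6.06 and 4.93, and in COL p53 those at 3.51 and 4.09 lay below 7.20 and 5.05, and neither passed (adjusted p = 0.103 and 0.598).

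Bid (ENSMUSG00000004446, chr6:120891930-120916853, minus strand), which caspase-8 cleaves to link death receptors to mitochondria, passed no comparison and ranged from 28.9 to 45.0 CPM in COL and from 22.2 to 31.8 in SI. Its on versus off log2 fold changes ran from -0.15 ± 0.17 (SE) in SI p53 to 0.29 ± 0.14 in COL BRAFp53. Bik (ENSMUSG00000016758, chr15:83526862-83544634, plus strand) passed no on versus off comparison either. In COL it lay at 2.49 to 4.25 CPM, and in SI BRAF on it was down to 7 and 3 counts per library, the lower of them at the floor of 3 counts set here for detection, against 23 and 8 off. The on and off libraries overlapped in CPM, with a log2 fold change of -1.43 ± 1.03 (SE, adjusted p = 0.324) that ran from -2.11 to -0.23 as 1 library was left out. In SI BRAFp53 Bik had 28 and 7 counts on and 16 and 3 off, with 0.85 ± 0.97 (adjusted p = 0.664) and a range of -0.64 to 2.46. Opposite-strand exons of Bcl2l13 cover 17.69% of Bid.

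Bak1, the pore former of the set, rose with BRAFV600E in 3 of the 4 comparisons that switched it on. Bak1 (ENSMUSG00000057789, chr17:27019810-27029009, minus strand) stood at 37.6 and 44.2 CPM in COL BRAF on against 25.9 and 22.0 off (log2 fold change 0.77 ± 0.15 SE, adjusted p = 0.00341). In SI it stood at 69.5 and 64.7 CPM in BRAF on against 41.1 and 32.7 off (0.86 ± 0.20, adjusted p = 0.00445), and at 53.7 and 58.7 in BRAFp53 on against 27.2 and 33.6 off (0.89 ± 0.20, adjusted p = 0.0101). On and off did not overlap in any of these. In COL BRAFp53 the on libraries at 27.9 and 27.5 CPM lay just above the off libraries at 22.4 and 27.4 (0.15 ± 0.15, adjusted p = 0.525). The SI BRAF call was lost without off replicate 2 (adjusted p = 0.0589) and held without the Xist-bearing library (0.83), and the SI BRAFp53 call was lost without on replicate 2 or off replicate 1, with adjusted p up to 0.105. Ggnbp1, whose opposite-strand exons cover 18.16% of Bak1, stayed at or below 2.45 CPM in every library.

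**Figure D3:**
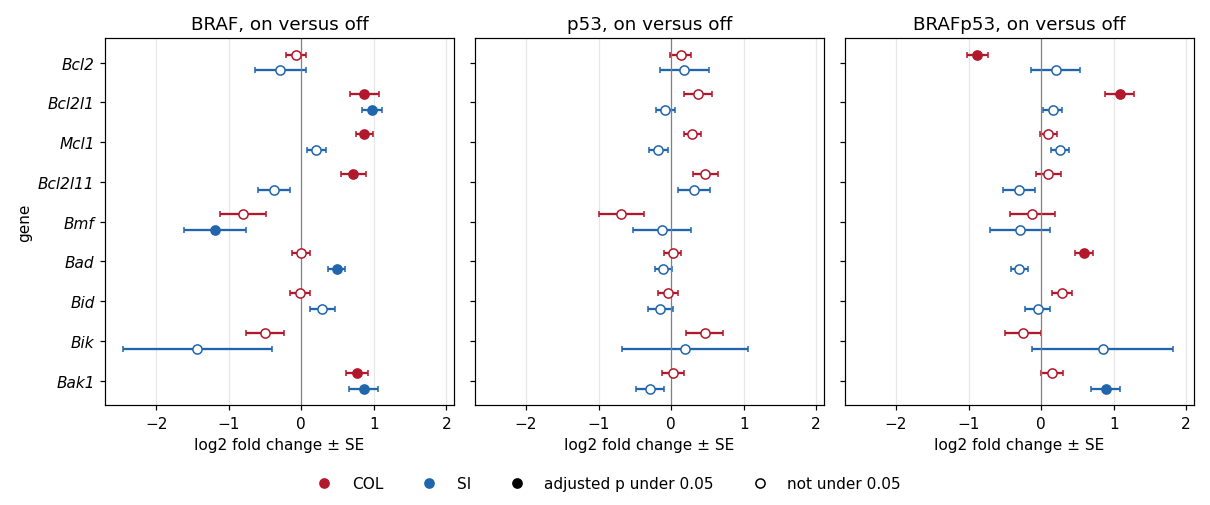
Log2 fold change of on over off with its standard error (x axis) for the 9 genes (rows) in the BRAF, p53 and BRAFp53 cultures (panels), COL in red and SI in blue, with filled points for an adjusted p under 0.05. Bcl2l1 and Bak1 were filled in both tissues for BRAF, Mcl1 and Bcl2l11 in COL BRAF, Bmf and Bad in SI BRAF, and no point was filled for p53.

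By comparison, 4 of 9 members passed in COL BRAF, all 4 higher (Bcl2l1, Mcl1, Bcl2l11 and Bak1), where 19.9% of the 18972 genes tested passed and 10.3% were higher. In COL BRAFp53, 3 passed, Bcl2l1 and Bad higher and Bcl2 lower, where 17.7% of all genes passed and 9.95% were higher. In SI BRAF, 4 passed, Bcl2l1, Bak1 and Bad higher and Bmf lower, where 31.7% of the 16856 genes tested passed and 17.5% were higher. In SI BRAFp53, Bak1 alone passed, where 11.5% of all genes passed and 6.98% were higher. The median log2 fold change over the 9 members was 0.00 in COL BRAF, 0.10 in COL BRAFp53, 0.21 in SI BRAF and 0.16 in SI BRAFp53, beside -0.01, -0.04, -0.06 and -0.03 over all genes tested. On and off libraries did not overlap for 6 members in COL BRAF, 6 in COL BRAFp53, 6 in SI BRAF and 4 in SI BRAFp53, and for 60.0%, 57.0%, 63.2% and 54.8% of all genes. Without the Xist-bearing library the same 4 members passed in SI BRAF, with a median of 0.21 over the 9 members. The members that did not pass in SI BRAF did not pass without it either, with log2 fold changes of 0.23 for Mcl1, -0.54 for Bcl2l11, 0.21 for Bid and -1.92 for Bik. That of Bcl2 went from -0.29 to 0.07.

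With p53R172H alone, 0 of 9 members passed in COL or SI by edgeR, by DESeq2 or by limma-voom, where 0.142% of all genes passed in COL and 0.0% in SI by edgeR, 1.71% and 0.386% by DESeq2 and 0.195% and 0.00593% by limma-voom. Before adjustment, p was under 0.05 for 3 members in COL (Mcl1, Bcl2l11 and Bmf) and for 0 in SI, and for 8.34% and 5.18% of all genes. Bcl2l11 stood at 14.9 and 12.8 CPM in COL p53 on against 9.28 and 10.7 off (log2 fold change 0.47 ± 0.17 SE, adjusted p = 0.441), and Mcl1 at 60.6 and 67.0 against 49.5 and 54.5 (0.29 ± 0.12, adjusted p = 0.517).

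Within a tissue, the BRAF response was taken from the BRAFp53 response, which sets a culture against another and so includes the difference between the donors. The difference also holds what p53R172H does by itself. Because the response of the p53 culture was not subtracted, whether p53R172H altered what BRAFV600E did was not tested. In SI the cultures also differed in Xist, at 0.206 to 0.437 CPM in BRAF apart from on replicate 1 and 104 to 150 in p53 and BRAFp53, so that genotype and sex cannot be told apart there. In SI, 2 of 9 members differed, where 8.2% of all genes did, 1058 genes with a lower response in BRAFp53 and 325 with a higher one. Bcl2l1 responded less in BRAFp53, by a difference of log2 fold changes of -0.82 ± 0.19 (SE, adjusted p = 0.0187), and so did Bad, by -0.79 ± 0.17 (adjusted p = 0.0118). Both held without the Xist-bearing library, at -0.88 and -0.71. The Bcl2l1 call was lost without any of 5 of the 8 libraries (SI BRAF on replicate 2, SI BRAF off replicate 2, SI BRAFp53 on replicates 1 and 2 and SI BRAFp53 off replicate 1) and in the joint fit of all 24 libraries (adjusted p = 0.0636), and that of Bad without 3 of them (SI BRAF off replicate 2, SI BRAFp53 on replicate 2 and SI BRAFp53 off replicate 1). Markers of cell types differed in the same SI comparison. Of 6 Paneth cell markers 6 were higher, of 6 stem cell markers 4 and of 6 goblet cell markers 4. Of 8 enterocyte markers 5 were lower, and of 6 epithelial markers 1 was higher and 2 lower. The part of these markers in the Bcl2l1 and Bad differences was not tested. In COL, 0 of 9 passed by edgeR, where 0.907% of all genes did. There were 5 members at an unadjusted p under 0.05, where 19.0% of all genes were. By limma-voom 1 was called, where 1.21% of all genes were, and 3 by DESeq2, where 7.19% were called. Mcl1 came nearest, at -0.77 ± 0.17 (adjusted p = 0.0544 by edgeR, 0.0435 by limma-voom and 0.00159 by DESeq2), followed by Bcl2 at -0.81 ± 0.20 (adjusted p = 0.075) and Bad at 0.59 ± 0.17 (adjusted p = 0.103).

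The COL and SI responses were set against each other in 1 fit of all 24 libraries. For BRAF, 2 of 9 members differed, where 10.7% of all genes did, and both responded more in COL. The difference of log2 fold changes was 1.06 ± 0.28 for Bcl2l11 (SE, adjusted p = 0.021) and 0.62 ± 0.18 for Mcl1 (adjusted p = 0.0315). Without the Xist-bearing library Bcl2l11 differed by 1.22 ± 0.33 (adjusted p = 0.0233), and Mcl1 by 0.61 ± 0.20 and was no longer called (adjusted p = 0.0759). The Mcl1 call was lost without any of 7 of the 8 libraries of the comparison, COL BRAF off replicate 2 being the exception, and that of Bcl2l11 without 4 of them (COL BRAF on replicate 1, COL BRAF off replicate 2, SI BRAF on replicate 2 and SI BRAF off replicate 1). Bcl2l1 and Bak1, which rose in both tissues, differed by -0.15 ± 0.26 and -0.13 ± 0.25 without passing, and by -0.21 ± 0.29 and -0.09 ± 0.29 without the Xist-bearing library. Bad went the other way, by -0.53 ± 0.17, and just missed the threshold (SE, adjusted p = 0.0508 by edgeR and 0.0157 by DESeq2). It was called with at least 10 counts in every library and without COL BRAF on replicate 1 or SI BRAF on replicate 2. For BRAFp53, 1 of 9 differed, where 3.52% of all genes did, namely Bad by 0.86 ± 0.17 (SE, adjusted p = 0.00789), from responses of 0.59 in COL and -0.30 in SI. The Bad call was lost without SI BRAFp53 on replicate 2 or off replicate 1 (adjusted p up to 0.0561). Bcl2l1 came next at 0.88 ± 0.26 (SE, adjusted p = 0.0656 by edgeR and 0.00941 by DESeq2), and was also called with no filter, with at least 10 counts and without COL BRAFp53 off replicate 1. Bcl2 showed -1.12 ± 0.39 (adjusted p = 0.13) and was called with no filter and with the replicate block (lowest adjusted p = 0.0429).

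**Figure D4:**
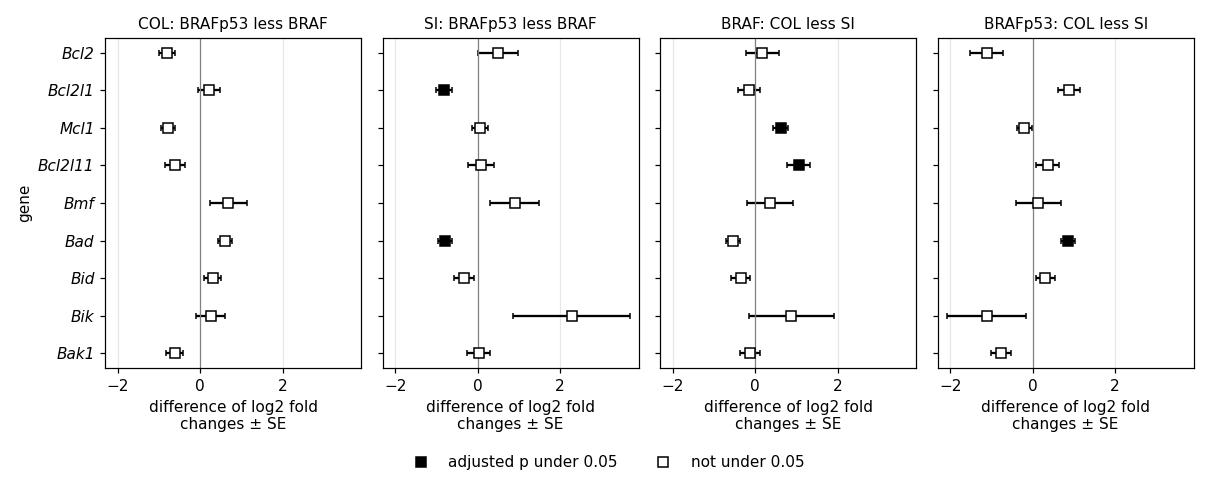
Difference between 2 on versus off responses, as a difference of log2 fold changes with its standard error (x axis), for the 9 genes (rows), with filled squares for an adjusted p under 0.05. The filled squares were Bcl2l1 and Bad in SI for BRAFp53 less BRAF, Mcl1 and Bcl2l11 for COL less SI in BRAF, and Bad for COL less SI in BRAFp53.

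Across libraries, Mcl1 and Bak1 moved most alike among the members, with Pearson's r of log2 CPM of 0.83 over the 12 COL libraries and 0.73 over the 12 SI libraries, followed by Bad and Bid with 0.82 and 0.66. Bcl2 and Bad ran opposite in both tissues, with -0.70 and -0.57. Among 8098 named genes with a mean of at least 3 log2 CPM in both tissues, those closest to Bcl2l1 were Rnh1 (r of 0.97 in COL and 0.96 in SI), Tmbim1 and Ctnna1. Closest to Mcl1 were Wasf2 (0.91 and 0.90), Bspry and Rala. Closest to Bak1 were Zfand3 (0.94 and 0.95), Midn and Ube2m, and closest to Bad were Arpin (0.89 and 0.90), Poldip3 and Fuca1. The best matches of the other 5 members reached lower values, the top one being Zbtb11 for Bcl2, Casp4 for Bcl2l11, Alg10b for Bmf, Cog2 for Bid and Txndc12 for Bik. The libraries share 3 cultures per tissue, so these values describe the pattern over few independent sources.

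The other genes of the pathway were taken from 7 lists with 84 different genes, 5 of them in 2 lists, read beside the shares of all genes given above. The list of other BCL2 family genes had 17, of which 12 passed the filter in COL and 11 in SI. Of these, 3 rose and 1 fell in COL BRAF, 3 rose in COL BRAFp53, 5 rose in SI BRAF and 1 rose in SI BRAFp53, with medians of 0.17, 0.32, 0.26 and 0.06 on the log2 scale. Bok, a relative of Bax and Bak1, rose in all 4 comparisons, from 47.6 and 44.1 CPM to 118 and 119 in COL BRAF (log2 fold change 1.37 ± 0.13 SE), and from 6.93 and 6.50 to 15.5 and 16.1 in SI BRAF (1.23 ± 0.23). Bax, the other main pore former and a p53 target, rose in COL BRAF from 169 and 155 CPM to 262 and 257 (0.68 ± 0.10) and in COL BRAFp53 (0.91 ± 0.10), with -0.06 in SI BRAF. The difference between the tissues passed for Bax in BRAF (0.70) and in BRAFp53 (0.72). Pmaip1, which encodes the BH3-only protein NOXA that binds MCL1, rose in COL BRAF (0.87 ± 0.19), COL BRAFp53 (0.64 ± 0.19) and SI BRAF (0.75 ± 0.18). Bbc3, which encodes PUMA, reached 0.95 in COL BRAF without passing. Bcl2l15, Bnip3 and Bnip3l rose in SI BRAF, by 0.76, 0.56 and 0.46, and Bcl2a1d fell in COL BRAF from 11 and 3 counts to 0 and 0, a scarce gene whose near-identical paralogs make its counts uncertain.

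**Figure D5:**
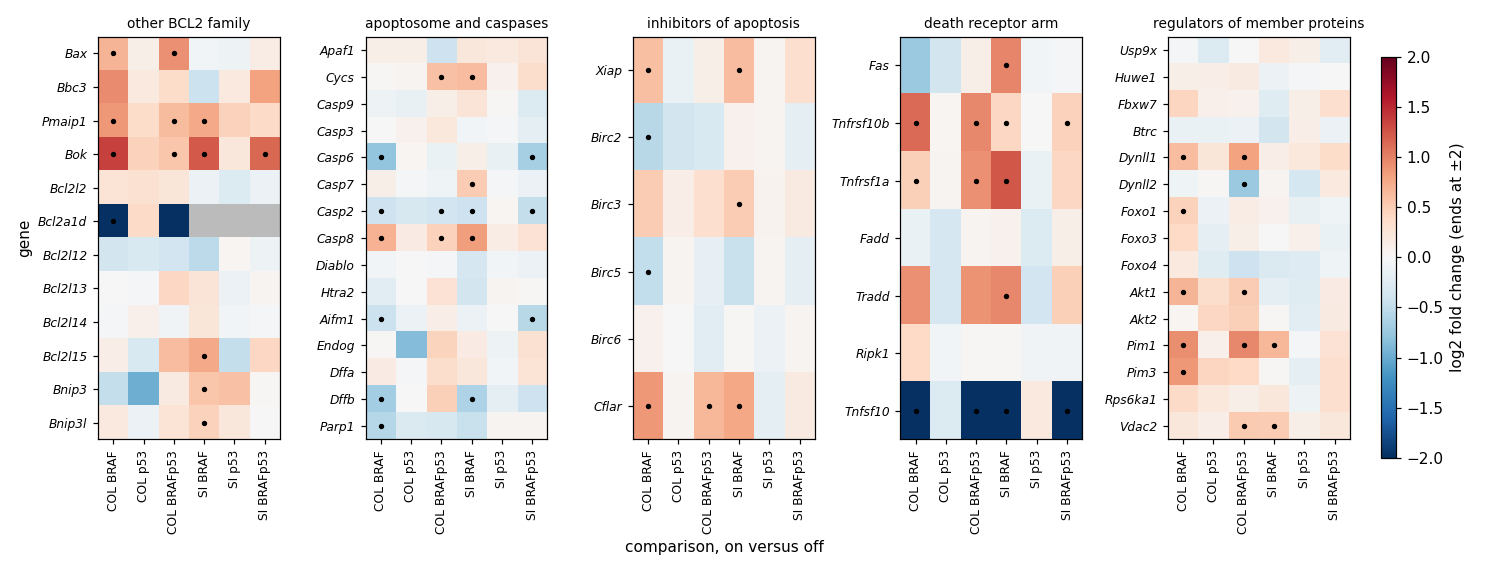
Log2 fold change of on over off (colour, ending at ±2) for the genes tested in 5 lists (rows) in the 6 comparisons (columns), with a dot where the adjusted p was under 0.05 and grey where a gene was not tested. Bok was dotted in all 4 BRAF and BRAFp53 columns and Tnfsf10 was dotted and lower in the same 4, and no cell was dotted in the p53 columns.

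Downstream of the family, the 15 apoptosome and caspase genes moved both ways, 1 rising and 5 falling in COL BRAF, 2 and 1 in COL BRAFp53, 3 and 2 in SI BRAF and 0 and 3 in SI BRAFp53, with medians of -0.06, 0.13, 0.11 and -0.11. Casp8, the initiator caspase of death receptors that cleaves BID, rose in COL BRAF (0.69 ± 0.12 SE), COL BRAFp53 (0.46 ± 0.12) and SI BRAF (0.84 ± 0.13), and Casp2 fell in all 4, by 0.38 to 0.48. Of 6 inhibitors of apoptosis, Cflar, which encodes the caspase-8 inhibitor FLIP, rose in the same 3 comparisons as Casp8 (0.86 ± 0.18, 0.66 ± 0.18 and 0.78 ± 0.14), and Xiap, a direct caspase inhibitor, rose in COL BRAF (0.60) and SI BRAF (0.62). In that list 2 rose and 2 fell in COL BRAF, 1 rose in COL BRAFp53, 3 rose in SI BRAF and 0 passed in SI BRAFp53 by edgeR (1 at an unadjusted p under 0.05, where 24.6% of all genes were), with medians of 0.30, -0.03, 0.30 and 0.12. Of 8 death receptor genes 7 were tested, of which 2 rose and 1 fell in COL BRAF, 2 rose and 1 fell in COL BRAFp53, 4 rose and 1 fell in SI BRAF and 1 rose and 1 fell in SI BRAFp53, with medians of 0.40, 0.12, 0.42 and 0.12. The ligand gene Tnfsf10, which encodes TRAIL, fell by 2.95, 4.03, 2.46 and 3.05 in COL BRAF, COL BRAFp53, SI BRAF and SI BRAFp53, while its receptor gene Tnfrsf10b rose in the same 4 comparisons by 1.14, 0.96, 0.42 and 0.46. In SI BRAF, Tnfrsf1a, Fas and Tradd rose more than Tnfrsf10b, by 1.24, 0.97 and 0.96. Tnfrsf1a and Fas were also lower in the SI BRAFp53 response less the BRAF response, by -0.84 and -0.98. Of 15 regulators of member proteins, 5 rose in COL BRAF, 4 rose and 1 fell in COL BRAFp53, 2 rose in SI BRAF and 0 passed in SI BRAFp53 (3 at an unadjusted p under 0.05), with Pim1, a kinase that phosphorylates BAD, rising by 0.93, 0.96 and 0.66 in the first 3. The medians of this list were 0.39, 0.15, 0.03 and 0.18. Without the Xist-bearing library the SI BRAF counts of the other BCL2 family, death receptor and regulator lists were as given. In the caspase list 3 then rose and 5 fell with a median of -0.24, and among the inhibitors of apoptosis 3 rose and 1 fell. The SI BRAF values of Bok, Pmaip1, Casp8, Cflar, Xiap, Tnfsf10 and Pim1 were then 1.28, 0.68, 0.95, 0.95, 0.78, -2.82 and 0.83 on the log2 scale, and each was still called.

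As a readout of the switched allele, 10 of 12 ERK feedback targets rose in COL BRAF, 9 in COL BRAFp53, 9 in SI BRAFp53, and 5 rose and 1 fell in SI BRAF, with medians of 1.44, 1.19, 1.3 and 0.47. Dusp6, a phosphatase that acts on ERK, rose by 1.66, 2.11, 1.90 and 3.10 in that order, and so was not typical of the list in SI BRAF. There Dusp5, Errfi1, Spry4 and Ier3 also rose, Egr1 fell by 0.64, and Dusp4, Spry2, Etv4, Etv5, Fosl1 and Phlda1 did not pass. In the COL less SI response to BRAF, 5 of the 12 targets were higher and 1 lower, with a median of 0.85. Of 16 p53 targets, 11 rose and 1 fell in COL BRAF, 10 rose and 1 fell in COL BRAFp53, 5 rose and 2 fell in SI BRAF and 4 rose and 1 fell in SI BRAFp53, with medians of 0.80, 0.63, -0.10 and 0.20. Without the Xist-bearing library 4 ERK feedback targets rose and 1 fell in SI BRAF, with Dusp6 at 3.20, and 5 p53 targets rose and 2 fell. The cell composition markers moved in the same libraries. Of 6 stem cell markers, 4 fell in COL BRAF, 5 in COL BRAFp53, 6 in SI BRAF and 1 in SI BRAFp53, and of 5 proliferation markers 5, 2, 3 and 0 fell. Of 9 enterocyte and colonocyte markers, 4 rose and 2 fell in COL BRAF, 3 rose and 2 fell in COL BRAFp53, and among the 8 tested in SI 6 rose in BRAF and 3 rose and 2 fell in BRAFp53. Of 6 goblet cell markers, 4 rose in COL BRAF, 4 in COL BRAFp53, 3 in SI BRAF and 6 in SI BRAFp53. Of 6 Paneth cell markers, 1 rose in COL BRAF, 1 rose and 1 fell in COL BRAFp53, 4 fell in SI BRAF and 4 rose in SI BRAFp53. Of 6 epithelial markers 5, 5, 5 and 4 rose, in the order COL BRAF, COL BRAFp53, SI BRAF and SI BRAFp53. In the same order, 0, 2, 3 and 1 of 4 tuft cell markers fell by edgeR. For the 5 enteroendocrine markers, 2, 1, 0 and 0 rose. Without the Xist-bearing library the SI BRAF counts of the stem cell, goblet, Paneth and epithelial markers were as given. In that fit 4 proliferation and 4 tuft cell markers fell, and 6 enterocyte markers rose and 1 fell. The part of these changes in the levels of the 9 genes was not tested, nor was which cells held the Paneth cell markers in COL.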

How the data were processed

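RNA from 24 organoid libraries was sequenced on an Illumina instrument. The authors deposited raw counts per Ensembl gene, 1 table per tissue. The submitters' processing notes name Trimmomatic 0.36 and STAR 2.5.2b, the study's methods name mm10, and the annotation release, counting tool settings and strand are not given in the sources used here. Symbols, lengths and coordinates came from GENCODE M21 (GRCm38). Counts were tested with edgeR 4.0.16 in R 4.3.3 (filterByExpr, TMM scaling, quasi-likelihood F test), with the 6 groups of a tissue in 1 fit, all 24 libraries in 1 fit for differences between tissues, and the 2 off libraries of a culture summed for off COL against off SI. Benjamini-Hochberg adjustment ran over all genes tested, and a gene was called at an adjusted p under 0.05. SE is the log2 fold change divided by the root of F. The study used limma, run here (3.58.1, voom) as an alternative beside DESeq2 1.42.0, other scaling and filters, a replicate block and leaving out each library. Libraries of a group differed by more than sampling noise (chi-square per degree of freedom of at least 22.3). The 9 members and the lists were chosen with earlier results of these data known, and the genes named are the 9 members and, of each list, up to 5 per comparison and direction with the largest change among those called with no overlap of on and off, any gene of the other BCL2 family, and for pattern the 3 genes with the highest value of the lower of the COL and SI correlations of log2(CPM + 0.5). Counting intervals would cover counting error only and were not used.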

Additional observations from a re-analysis of the deposited data

Results flagged for a closer look

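There were 5 responses of the members that differed between genotypes or tissues by the test of the difference itself. In SI, the BRAFp53 response less the BRAF response was -0.82 for Bcl2l1 and -0.79 for Bad on the log2 scale. The COL response less the SI response was 0.62 for Mcl1 and 1.06 for Bcl2l11 in BRAF, and 0.86 for Bad in BRAFp53. Each rests on 2 libraries per group from 1 culture per genotype and tissue, and each call was lost when at least 1 library was left out, as given beside the results.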

How the results depend on the processing

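Of the 99 pairs of member and comparison, 22 were called in the reported fit, and no called pair changed direction under any alternative. Another 71 pairs were called in no fit, and 33 of these changed sign in at least 1. The number of members called moved as follows. When a log2 fold change of 1 or more in size was also required, there were 0 members in COL BRAF, 1 in COL BRAFp53, 1 in SI BRAF, 0 in SI BRAFp53, 0 in the SI difference of BRAFp53 and BRAF, 1 for COL less SI in BRAF, 0 for COL less SI in BRAFp53 and 3 for off COL against off SI, beside 7.97%, 7.02%, 11.9%, 4.92%, 4.24%, 5.79%, 2.21% and 19.5% of all genes in that order. For the COL difference of BRAFp53 and BRAF, with 0 in the reported fit, 1 was called with no filter, with at least 10 counts in every library, by limma-voom and in the joint fit, and 3 by DESeq2. In that order 1312 of 30407, 391 of 13479, 229 of 18972, 396 of 19673 and 1364 of 18972 genes were called. The SI difference had 1 in the joint fit, where 1215 of 19673 genes were called. COL less SI in BRAF had 3 with at least 10 counts and by DESeq2, Bad being added, where 2344 of 11945 and 2920 of 19673 genes were called. COL less SI in BRAFp53 had 3 with no filter, 2 with at least 10 counts, 2 by DESeq2 and 2 with the replicate block. In that order 1548 of 31779, 1016 of 11945, 1580 of 19673 and 545 of 19673 genes were called. Leaving out 1 library at a time gave 2 to 4 members in COL BRAF, 2 to 4 in SI BRAF, 0 to 1 in SI BRAFp53, 0 to 2 in the SI difference, 0 to 1 for COL less SI in BRAF (Bad, with the opposite sign, without COL BRAF on replicate 1 or SI BRAF on replicate 2) and 0 to 2 for COL less SI in BRAFp53. With 1 library left in a group, its spread is assumed to be that of the others. These leave-out ranges are not set beside the share of all genes called in the same fits. Whether the members lost calls more often than other genes did was therefore not tested. Over all genes, p53 calls moved from 27 in COL and 0 in SI to 569 and 155 with no filter and 324 and 65 by DESeq2 (in COL also 99 in the joint fit and 15 with the replicate block), those of the COL difference from 172 to 1312 with no filter, 391 with at least 10 counts, 1364 by DESeq2, 396 in the joint fit and 17 with the replicate block, and those of COL less SI in BRAFp53 from 693 to 1548 with no filter and 1580 by DESeq2. The SI difference moved from 1383 to 2108 by DESeq2. The replicate numbers do not pair libraries, since the deviations of same-numbered on and off libraries correlated at -0.07 to 0.08 over the 6 cultures, and the replicate block changed no other member count by over 1.5 times. Other scaling moved member levels to 0.88 to 1.13 times the reported values.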
